A study of Mus musculus with 8 samples.

Results

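The growth hormone and IGF axis of the liver was examined through 10 genes chosen by symbol for their place in this pathway: the receptor gene Ghr, the signal transducers Stat5a and Stat5b, the feedback genes Cish and Socs2, the repressor gene Bcl6, the hormone gene Igf1, and Igfals, Igfbp2 and Igfbp4, whose products bind IGF1 or its complexes in blood. These genes and the lists used below were chosen with earlier results of these data known. Their shares and medians beside those of all genes are therefore descriptions. All 10 genes were found among the 17810 genes listed, and all 10 had enough counts to be among the 12395 genes tested. RNA-Seq was performed on livers of male WT and HKO littermates, with 4 mice of each genotype and 1 library per liver. Both genotypes received CD-HFD, a high-fat diet without choline, which began at 8 weeks of age and lasted 3 months, and all mice are labelled as 5 months old. HKO mice carry loxP-flanked miR-33 alleles and an Albumin-Cre transgene (AlbCRE), which removes the miRNA in hepatocytes, the main cells of the liver. WT mice keep miR-33, and whether this Cre also acts in other liver cells, such as cholangiocytes, was not examined here. The comparison of the genotypes asks which of these transcripts differed when hepatocytes lacked miR-33 during the steatosis that this diet induces.

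Growth hormone is released by the pituitary in pulses and binds a receptor that hepatocytes carry in abundance. The receptor activates the kinase JAK2, which phosphorylates STAT5 proteins, and these enter the nucleus and switch on target genes such as Igf1, Igfals, Socs2 and Cish. SOCS2 and CIS, the product of Cish, dampen the same receptor, while BCL6 is a repressor that can occupy many STAT5 target sites in male liver. IGF1 made by the liver circulates mostly in a complex with a binding protein and the acid-labile subunit, which Igfals encodes.

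The totals were 12174339 to 18735785 estimated counts per liver, and 3 counts corresponded to 0.149 to 0.255 CPM (read counts relative to library sizes scaled by the TMM method). This floor covers counting error only. The libraries carry order numbers that separate all HKO from all WT livers, so that order and genotype cannot be told apart. Liver markers were abundant in every library: 8 hepatocyte marker genes summed to 91355 to 123104 CPM for WT and 83209 to 136594 CPM in HKO livers. The HKO 2 liver stood apart from the other HKO livers in other cell types. It had 78.0 CPM summed over 10 macrophage markers, against 227 to 255 CPM in the other HKO livers. WT livers spread widely in this sum, from 109 to 270 CPM. That liver also had the highest sum of 6 cholangiocyte markers, 111 CPM, against 31.0 to 53.3 CPM in the other 7 livers. The HKO 3 liver stood apart more broadly. Its counts differed from those of the other HKO livers by a chi-square per degree of freedom of 113 to 128, against 19.4 to 44.8 for all other pairs of the same genotype. It was the highest HKO liver for 21 of 25 tested male-biased growth hormone targets and for 3 of the 10 axis genes, Ghr, Socs2 and Stat5a, and results that rest on it are also given without it. Of the 8 lymphocyte markers, 6 stayed below 1 CPM in every liver. In whole liver, fewer cells of a type and less RNA per cell cannot be told apart.

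The miRNA that HKO hepatocytes lack is shown first, because its removal is what the genotypes were designed to compare. Its seed, bases 2 to 8, is in capitals, and the mature sequence is that of RefSeq on GRCm38.p6 at chr15:82198127-82198147, plus strand.
miR-33-5p: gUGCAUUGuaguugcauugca

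Matches to this seed were searched in the longest annotated 3′UTR (GENCODE M21) of each gene, as CAATGCA or AATGCAA on the transcript strand. Of 11536 tested genes with a 3′UTR of at least 50 bases, 16.2% held a match. Among the 10 axis genes, 1 did. Socs2 has 1 match, which begins at base 863 of a 3′UTR of 1163 bases. The 9 other 3′UTRs, from 262 bases in Igfals to 6308 bases in Igf1, held none. A match is a description of the letters and not of binding. The site is printed with the matching letters in capitals and 10 bases on either side, a window at chr10:95411774-95411800 on the minus strand of GRCm38.
Socs2 3′UTR site: aaacagaaacCAATGCAgacagagaca

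The letters TTCNNNGAA, which read the same on both strands and to which STAT5 and BCL6 are both known to bind, were searched from 250 bases before to 50 bases after each RefSeq start site. Of 32851 such promoter windows of the mouse, 8.30% held at least 1 match, 0.457% held 2 or more and 0.0335% held 3 or more. Positions are those of the first base of a match relative to the start site. Cish held 2 matches, at 1 and 12. Bcl6 held 3 matches at the second of its 2 start sites, at -168, -122 and -88, and 1 match at -118 of the other. Igfals held 1 match at each of 2 of its 3 start sites, at -236 and -58. The windows of Ghr, Igf1, Igfbp2, Igfbp4, Stat5a and Stat5b held no match, which says only that these letters are not there, and Socs2 was not in the promoter table used here. The stretches of Cish and Bcl6 are shown because these genes varied most between livers, and those of Igfals because it was the axis gene that passed the test. Each match is in capitals.
Cish, chr9:107296654-107296683, plus strand: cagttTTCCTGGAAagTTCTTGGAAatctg
Bcl6, chr16:23981358-23981456, minus strand: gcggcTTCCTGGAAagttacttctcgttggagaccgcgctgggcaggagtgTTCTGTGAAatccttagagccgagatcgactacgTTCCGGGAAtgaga
Igfals, chr17:24877598-24877626, plus strand: gatctataatTTCTCAGAAaagaggctga
Igfals, chr17:24878163-24878191, plus strand: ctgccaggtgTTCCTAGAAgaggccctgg
The Cish stretch spans the start site, whereas the Bcl6 and Igfals stretches lie before the start sites to which their positions refer.

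Of the 10 axis genes, 1 passed a threshold of 0.05 for the p of edgeR's quasi-likelihood test after adjustment over all genes tested by the Benjamini-Hochberg method. This was Igfals, which was higher in HKO livers, and no axis gene was called lower. Over all genes tested, 5.03% were called, 1.66% as higher and 3.37% as lower. With total count scaling in place of TMM the split over all genes was 119 higher and 621 lower, against 206 higher and 418 lower. At an unadjusted p under 0.05, 4 of the 10 axis genes passed, against 19.8% of all genes. These were Igfals, Igfbp4, Igfbp2 and Stat5a, the first 3 with higher and Stat5a with lower means in HKO livers. DESeq2 called Igfals and Igfbp4, both higher, against 8.18% of all genes, and limma-voom called none of the 10. In 2 of the 10 genes, Igfals and Stat5a, the WT and HKO values did not overlap, against 12.5% of all genes. The median log2 fold change of the 10 genes (HKO minus WT) was 0.20, and that of all genes tested was 0.01.

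**Figure D1:**
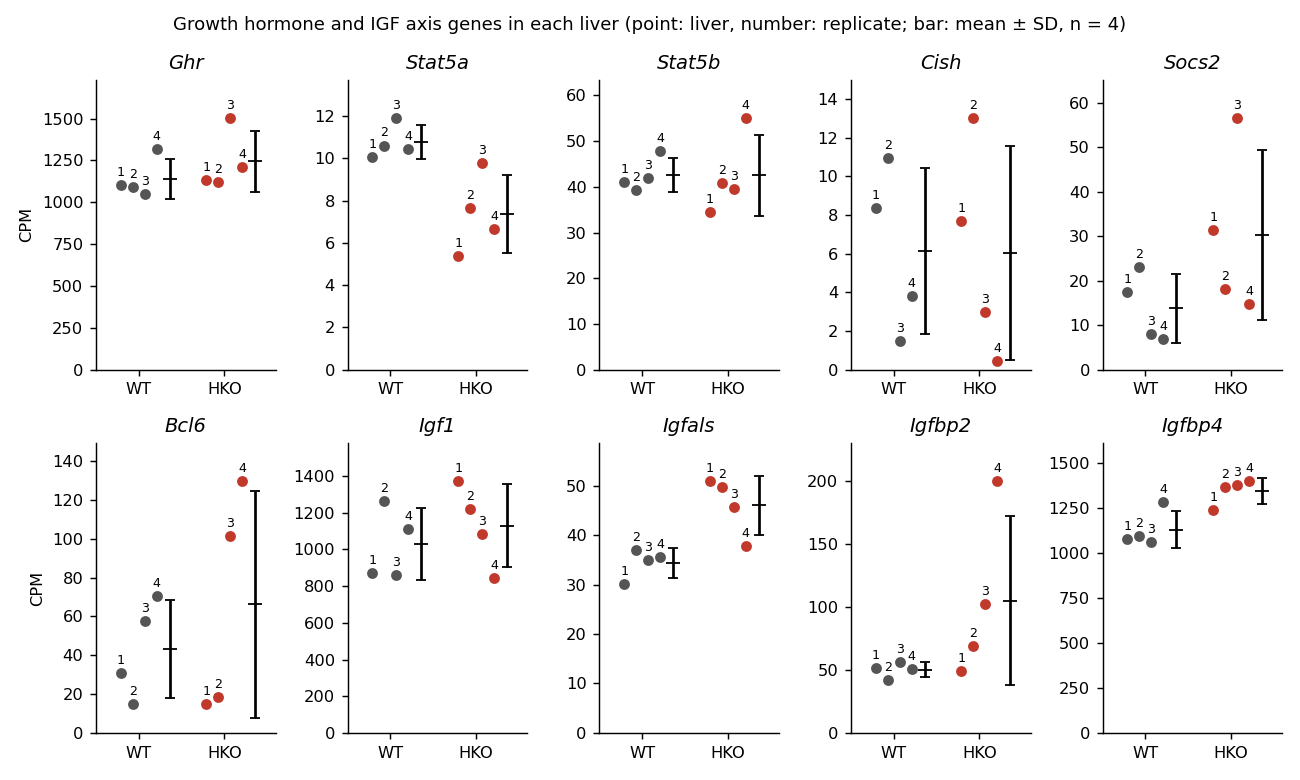
CPM of the 10 axis genes in each liver, on linear axes that start at 0 and differ between panels. Points are livers with their replicate number, grey for WT and red for HKO, and the black mark and bar are the mean ± SD of 4 livers. All 4 HKO points lie above the WT points for Igfals and below them for Stat5a, and the points of Cish, Socs2 and Bcl6 spread widely within both genotypes.

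The receptor transcript was abundant in all livers. Ghr, on chromosome 15 from 3317755 to 3583352 on the minus strand (GRCm38), encodes the growth hormone receptor. It was measured at 1104, 1089, 1051 and 1316 CPM in WT livers 1 to 4 and at 1131, 1123, 1506 and 1212 CPM in HKO livers 1 to 4. The groups overlapped, and the highest WT liver exceeded 3 of the 4 HKO livers. The means were 1140.2 ± 119.6 CPM for WT and 1243 ± 179.6 CPM for HKO livers (SD, n = 4 each). Ghr had a log2 fold change of 0.12 with a standard error of 0.12 (adjusted p = 0.616, edgeR), and of 0.02 without HKO 3.

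STAT5 is encoded by a pair of neighbouring paralogs on chromosome 11, and of the pair Stat5a alone showed no overlap between the genotypes. Stat5a (100859351 to 100885169, plus strand) was at 10.1, 10.6, 11.9 and 10.4 CPM in WT livers and at 5.40, 7.64, 9.80 and 6.64 CPM in HKO livers. Every HKO liver was below every WT liver, and the means were 10.8 ± 0.807 and 7.37 ± 1.86 CPM (SD, n = 4 each). A two-sided exact permutation test on log2 CPM gave p = 0.0286, the smallest that 4 livers against 4 allow. The log2 fold change of Stat5a was -0.54 with a standard error of 0.17 and missed the threshold (adjusted p = 0.0963, edgeR). Without the HKO 3 liver, the HKO liver nearest to WT, Stat5a passed it at -0.72 on the log2 scale (adjusted p = 0.0284, edgeR). In the other 7 fits with a liver removed it missed the threshold, with adjusted p from 0.140 to 0.218 by edgeR.

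Stat5b (100780731 to 100850581, minus strand) encodes the STAT5 protein that mediates most of the male growth hormone response in liver. It was at 41.1, 39.3, 42.0 and 47.9 CPM in WT livers and at 34.5, 40.8, 39.4 and 55.2 CPM in HKO livers. HKO livers held both the lowest and the highest value. Stat5b had a log2 fold change of -0.0043 with a standard error of 0.13 (adjusted p = 0.992, edgeR). Stat5a reads as a share of Stat5b reads were 24.5%, 27.0%, 28.4% and 21.8% in WT and 15.7%, 18.7%, 24.9% and 12.04% in HKO livers. On the log2 scale this ratio differed by -0.56 (two-sided exact permutation test, p = 0.0857, 0.214 after Benjamini-Hochberg adjustment over 3 ratios). Without HKO 3 the difference was -0.73 (exact permutation test, p = 0.0286, the smallest that 3 livers against 4 allow). Removing any other liver gave differences from -0.63 to -0.39, with p from 0.0857 to 0.143 in the same exact permutation test. The paralogs share sequence, and their deposited values were fractional in 7 livers for Stat5a and in 8 for Stat5b, so some of their reads were divided by the counting method. Fractions were not particular to this pair, as values were also fractional in 7 livers for Igf1 and in 6 for Ghr. Those of Igfals were fractional in 7 livers but nearly whole, such as 364.001 in WT 1 and 755.003 in HKO 1. Stat5a had values such as 122.252 in WT 1 and 239.506 in WT 3. Those of Igfbp4 and Cish were fractional in 0 livers. In GENCODE M21 the 3′ end of Stat5a overlaps Stat3 on the other strand by 72 bases. In the coordinates listed with the counts, Stat5a ends at 100885169 and Stat3 begins at 100886806, so these spans do not overlap. Whether the counting used strand is not given in the sources used here, and the part of shared reads in these values was not tested.

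The feedback genes varied several-fold between livers of the same genotype. Cish (chromosome 9, 107296659 to 107302784, plus strand) was at 8.35, 11.0, 1.49 and 3.81 CPM in WT livers and at 7.69, 13.0, 2.99 and 0.426 CPM in HKO livers. The lowest of these, in HKO 4, rests on 5 counts, and the highest, in HKO 2, on 169. The genotypes overlapped widely, and the highest value exceeded the lowest 7.35-fold within WT and 30.7-fold within HKO livers. Cish had a log2 fold change of -0.0099 with a standard error of 0.95 (adjusted p = 0.998, edgeR), so that a difference of the size of that error could not be detected.

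Socs2 (chromosome 10, 95411490 to 95416857, minus strand), whose product limits growth hormone signalling and whose loss gives overgrown mice, was at 17.4, 23.0, 7.96 and 6.77 CPM in WT livers. In HKO livers it was at 31.4, 18.1, 56.7 and 14.6 CPM. The upper 2 HKO livers were above all WT livers, and the lower 2 lay among them. The means were 13.8 ± 7.75 CPM for WT and 30.2 ± 19.1 CPM for HKO livers (SD, n = 4 each). Socs2 had a log2 fold change of 1.14 with a standard error of 0.59 (adjusted p = 0.355, edgeR), which was 0.66 without HKO 3 and 1.52 without WT 2. Its ratio to Ghr within each liver differed by 0.99 on the log2 scale (two-sided exact permutation test, p = 0.143, 0.214 after adjustment over 3 ratios), and by 0.64 without WT 4.

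Bcl6 (chromosome 16, 23965050 to 23988852, minus strand) was at 30.6, 14.8, 57.7 and 70.4 CPM in WT livers and at 14.8, 18.6, 101 and 129.7 CPM in HKO livers. HKO livers 3 and 4 were above all others, whereas HKO 1 and 2 were among the lowest. The means were 43.4 ± 25.3 CPM for WT and 66.1 ± 58.2 CPM for HKO livers (SD, n = 4 each), and Bcl6 had a log2 fold change of 0.61 with a standard error of 0.87 (adjusted p = 0.775, edgeR). That value moved from 0.06 without HKO 4 to 0.94 without WT 4, and limma-voom gave 0.22.

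High Bcl6 and low Cish occurred in the same livers. The 4 livers with the lowest Cish, WT 3, WT 4, HKO 3 and HKO 4, were the 4 livers with the highest Bcl6, and this split each genotype into 2 and 2. Within these sets of 4 the order was not fully reversed. The split was noticed after the values were seen and is given as a description with no test. When each gene was centred on its mean log2 CPM and the sign of Cish was turned, Bcl6 was the nearest of 11877 genes with a mean of at least 1 CPM. The root mean square difference was 0.75, against 1.46 for the deviation of Cish from its own mean. Genes were not scaled to equal spread, so those that vary little cannot come near Cish on this measure. Bcl6 itself varied more than 99.5% of genes. The ranking was made after the split was seen and is also a description only. On the same measure the gene nearest to the mirror image of Bcl6 was Alas1 (0.51), which encodes the first enzyme of heme synthesis and was at 254, 466, 259 and 190.5 CPM in WT livers and at 382, 294, 94.3 and 49.9 CPM in HKO livers. Onecut1, the gene of the liver transcription factor HNF6, came next (0.61).

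**Figure D2:**
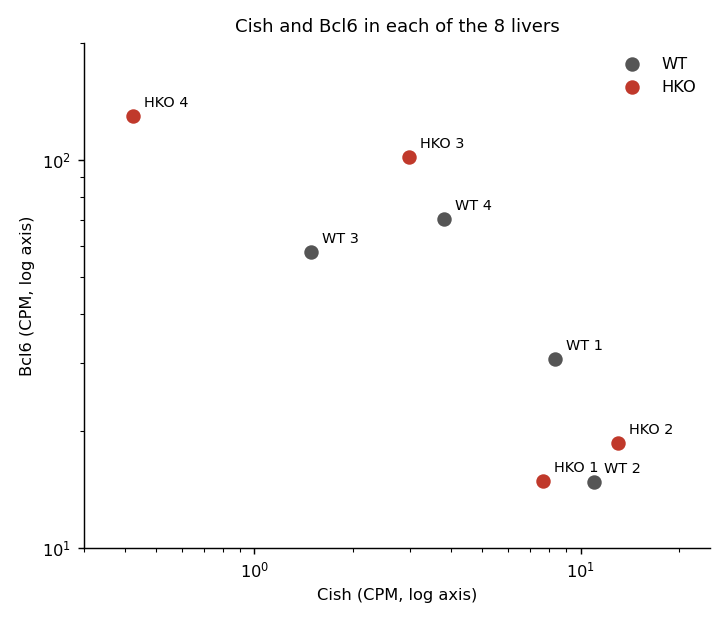
CPM of Cish (horizontal) and Bcl6 (vertical) in the 8 livers, both on log axes, with WT in grey and HKO in red and each liver named. WT 3, WT 4, HKO 3 and HKO 4 lie at the upper left, with Bcl6 from 57.7 to 129.7 CPM, and the other 4 livers lie at the lower right, with Cish from 7.69 to 13.0 CPM.

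The spread of these genes within a genotype was compared with that of all genes. The standard deviation of log2 CPM within genotypes was 1.67 for Cish, 1.35 for Bcl6, 0.86 for Socs2 and 0.63 for Igfbp2, and its median over all genes tested was 0.20. Cish was more variable than 99.8%, Bcl6 than 99.5%, Socs2 than 97.6% and Igfbp2 than 93.5% of genes. Igf1 (69.0%), Stat5a (64.9%), Stat5b (56.3%), Ghr (41.9%) and Igfals (39.4%) were nearer the middle, and Igfbp4 varied more than only 13.5% of genes.

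Igf1 (chromosome 10, 87858265 to 87937047, plus strand), the main growth hormone target made by the liver, was at 872, 1265, 861 and 1113 CPM in WT livers. In HKO livers it was at 1373, 1220.1, 1083 and 844 CPM. The HKO livers held both the highest and the lowest value, with means of 1028 ± 196 CPM for WT and 1130.2 ± 225 CPM for HKO livers (SD, n = 4 each). Igf1 had a log2 fold change of 0.14 with a standard error of 0.17 (adjusted p = 0.714, edgeR), from 0.03 without HKO 1 to 0.26 without WT 2. The genes with the most similar pattern over the 8 livers were Dda1, Fancl and Cacnb4, at root mean square differences of 0.10, 0.11 and 0.13 in centred log2 CPM, where Igf1 itself deviated by 0.26 from its mean. With 8 points and 11877 candidates, such nearness is a description only.

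Igfals, which encodes the acid-labile subunit that holds IGF1 in its large circulating complex, was the axis gene that passed the test. It lies on chromosome 17 from 24877844 to 24882011 on the plus strand. Its level was 30.1, 37.1, 34.9 and 35.6 CPM in WT livers and 50.9, 49.8, 45.6 and 37.7 CPM in HKO livers. All HKO livers were above all WT livers, although HKO 4 exceeded WT 2 by under 1 CPM. This separation depended on TMM scaling. With total count scaling HKO 4, at 35.4 CPM, was below WT 2 at 38.6 and WT 3 at 38.3 CPM. The mean rose from 34.4 ± 3.02 to 46.0 ± 5.99 CPM (SD, n = 4 each), a 1.34-fold difference and a log2 fold change of 0.42 with a standard error of 0.11. The adjusted p was 0.0472 (edgeR's quasi-likelihood test, Benjamini-Hochberg method). On log2 CPM with TMM scaling the two-sided exact permutation test gave p = 0.0286, the smallest possible. The direction was the same in all 17 alternative fits, with log2 fold changes from 0.33 to 0.50, but the call was lost in 10 of them. Those were limma-voom, total count scaling, the replicate block and 7 of the 8 fits with 1 liver removed. The adjusted p lay between 0.0712 and 0.139 in these 7 edgeR fits and was 0.0225 without HKO 4.

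**Figure D3:**
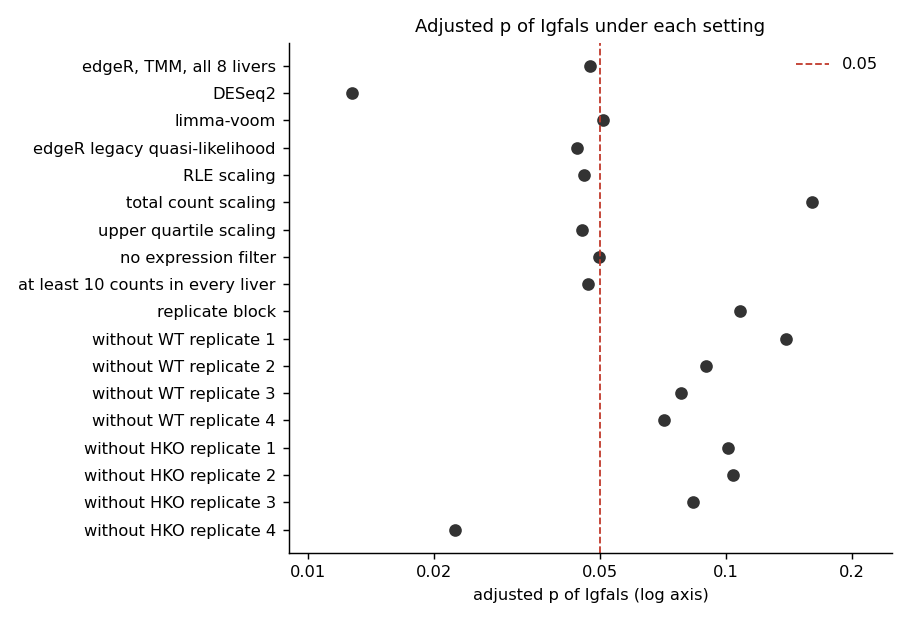
Adjusted p of Igfals (log axis) in the edgeR fit with TMM scaling and in 17 alternative fits, with a dashed line at 0.05. The points run from 0.0128 with DESeq2 to 0.160 with total count scaling, and 10 of the alternatives lie above the line.

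Among the hepatocyte markers, 4 of 8 were also called higher in HKO livers (Cps1, Ass1, Serpina1c and Tat), while the most abundant, Alb, had a log2 fold change of -0.03. Of all genes tested, 1.66% were called higher. None of the 8 was near 0 in any liver, and the ranges of their sum overlapped between the genotypes. The part of these genes in the Igfals result was not tested. Nearest to Igfals in pattern were Mtss1, Kdm5b and Slc39a14, with root mean square differences of 0.07, 0.08 and 0.10 against a deviation of 0.25 for Igfals itself. Slc39a14, a zinc and iron transporter, rose by 0.46 on the log2 scale (adjusted p = 0.0374, edgeR).

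Of the IGF binding protein genes in this axis, Igfbp4 varied less within genotypes than Igfbp2. Igfbp4 (chromosome 11, 99041244 to 99052655, plus strand), whose product holds IGFs back from their receptor, was at 1077, 1092, 1063 and 1280.4 CPM in WT livers. In HKO livers it was at 1238, 1365, 1375 and 1399.7 CPM. The WT 4 liver lay apart from the other WT livers and above HKO 1, and the other 3 HKO livers were above all WT livers. With means of 1128 ± 102 CPM for WT and 1344 ± 72.2 CPM for HKO livers (SD, n = 4 each), Igfbp4 had a log2 fold change of 0.25 with a standard error of 0.09. The adjusted p was 0.150 by edgeR, 0.136 by limma-voom and 0.0445 by DESeq2, and the two-sided exact permutation test gave p = 0.0571.

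Igfbp2 (chromosome 1, 72824480 to 72852471, plus strand), which growth hormone is known to lower, was at 51.7, 42.0, 56.5 and 50.7 CPM in WT livers. In HKO livers it was at 48.9, 69.1, 102 and 200.1 CPM. The WT livers were close together, whereas the HKO livers spread 4.09-fold, from a value among the WT livers to the highest, in HKO 4. The means were 50.2 ± 6.06 CPM for WT and 105 ± 67.0 CPM for HKO livers (SD, n = 4 each), and Igfbp2 had a log2 fold change of 1.06 with a standard error of 0.43 (adjusted p = 0.242, edgeR). Leaving out 1 liver at a time gave log2 fold changes from 0.55 without HKO 4 to 1.30 without HKO 1, none past the threshold. Igfbp2 reads were 5.92%, 3.32%, 6.56% and 4.56% of Igf1 reads in WT and 3.56%, 5.66%, 9.44% and 23.7% in HKO livers. On the log2 scale this ratio differed by 0.74 (two-sided exact permutation test, p = 0.314, also after adjustment over 3 ratios). Without HKO 4 the difference was 0.22, and without HKO 1 it was 1.14. The HKO 4 liver combined the highest Igfbp2 and Bcl6 with the lowest Igf1 and Cish of all 8 livers. Its Igf1, at 844 CPM, was close to that of WT 3, at 861 CPM. The same liver also had the highest Igfbp4 and Stat5b, while its Igfals was above that of every WT liver and its Socs2 lay among theirs. This combination was picked after the values were seen.

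**Figure D4:**
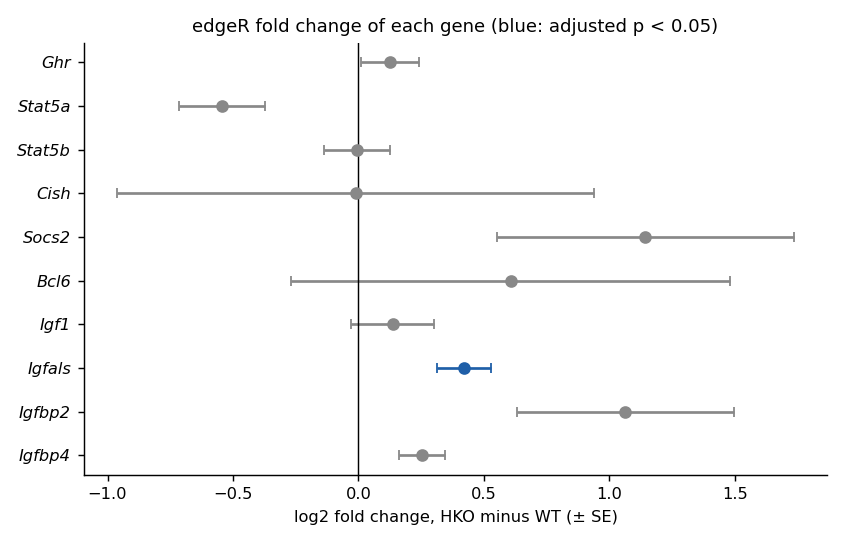
Log2 fold change of each axis gene, HKO minus WT, from edgeR, with bars for the standard error and blue for an adjusted p under 0.05. Igfals (0.42) is the blue point, Stat5a (-0.54) is the lowest, and the widest bars belong to Cish (0.95) and Bcl6 (0.87).

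Levels between genes were compared per kilobase of annotated exon (GENCODE M21, within each gene's listed span). In WT livers Igfbp4 was highest, at 421 ± 38.2 CPM per kilobase, followed by Ghr at 128 ± 13.4 and Igf1 at 104 ± 19.8. Igfbp2 at 27.2 ± 3.29 and Igfals at 12.5 ± 1.10 CPM per kilobase came next, then Stat5b at 7.89 ± 0.691, Bcl6 at 6.47 ± 3.77 and Socs2 at 4.11 ± 2.31. Stat5a at 1.51 ± 0.113 and Cish at 1.06 ± 0.741 CPM per kilobase were lowest (SD, n = 4 throughout). Ghr and Igf1, Stat5b and Bcl6, Bcl6 and Socs2, and Stat5a and Cish were neighbours in this order whose mean ± SD overlapped. Antisense or opposite-strand genes overlap Igf1 (Igf1os), Cish (Gm17040 and Gm17041) and Bcl6 (Gm37419), and without knowledge of strand their reads cannot be told apart.

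Around these 10 genes, the rest of the pathway was read from lists of genes. Of 23 other genes of growth hormone receptor signalling, 21 were tested and 1 was called, against 5.03% of all genes. The median log2 fold change of the list was 0.06. The gene called was Stat3, another signal transducer of cytokine receptors. Stat3 was at 53.7, 63.0, 65.0 and 54.9 CPM in WT livers and 85.8, 96.5, 81.5 and 88.7 CPM in HKO livers. The groups were well apart, and Stat3 rose by a log2 fold change of 0.57 with a standard error of 0.09 (adjusted p = 0.00496, edgeR). It was called in all 17 alternative fits. Jak2, the kinase of the receptor, was at 34.3 ± 1.27 CPM for WT and 34.1 ± 4.65 CPM for HKO livers (SD, n = 4 each). Jak2 had a log2 fold change of -0.0095 with a standard error of 0.0999 (adjusted p = 0.975, edgeR). Socs7 and Shc1 had the next smallest p, with log2 fold changes of 0.38 (adjusted p = 0.0628, edgeR) and 0.19 (adjusted p = 0.203, edgeR), and DESeq2 called Socs7 as well as Stat3.

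Of 15 further genes of the IGF system, 13 were listed and 8 were tested. The median log2 fold change was -0.20. None was called by edgeR or limma-voom, while Igfbp3 passed at an unadjusted p under 0.05 and was called lower by DESeq2. Igfbp3, the main carrier of circulating IGF1, made in liver chiefly by cells other than hepatocytes, was at 31.4, 26.7, 23.9 and 15.8 CPM in WT and 21.7, 13.9, 11.4 and 12.9 CPM in HKO livers. The groups overlapped through WT 4 and HKO 1, and Igfbp3 had a log2 fold change of -0.71 with a standard error of 0.25 (adjusted p = 0.159, edgeR). Beside it, 2 of 10 stellate cell markers, the collagen genes Col1a1 and Col3a1, were called lower, against 3.37% of all genes tested. Of the 10 markers, 6 had log2 fold changes below 0 and 4 above 0, and the median was -0.12. The sum of the 10 markers was 400 to 563 CPM for WT and 329 to 444 CPM in HKO livers, with none of them at 0. The sum of 10 endothelial markers ranged from 95.0 to 284 CPM in WT livers and from 142.97 to 319 CPM in HKO livers. The part of these cells in the Igfbp3 value was not tested. Igfbp1, an insulin-repressed binding protein, was at 13.5 to 22.7 CPM in WT livers, at 22.9 to 26.4 CPM in HKO 1 to 3 and at 125 CPM in HKO 4. The log2 fold change of Igfbp1 was 1.55 (adjusted p = 0.267, edgeR) and 0.54 without HKO 4. Htra1, a protease that cleaves IGF binding proteins, was near 1 CPM and differed by -0.86 on the log2 scale (adjusted p = 0.372, edgeR). This value was -0.30 without WT 1, which had 3.39 CPM while the remaining WT livers were at 0.838 to 1.51 CPM.

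Of 16 transcription regulators of growth hormone responses in liver, 15 were tested, 2 were called higher and none lower, and the median log2 fold change was 0.20. Of all genes tested, 1.66% were called higher and 3.37% lower. Foxa3, a forkhead factor of hepatocytes, was at 16.5, 17.9, 14.6 and 20.4 CPM in WT and 42.8, 31.0, 41.8 and 27.8 CPM in HKO livers. It rose by a log2 fold change of 1.05 with a standard error of 0.16 (adjusted p = 0.00433, edgeR) and was called in all 17 alternatives. Hnf4a, a central factor of hepatocyte identity, was at 441, 438, 471 and 435 CPM in WT and 633, 560, 499 and 594 CPM in HKO livers. Hnf4a rose by 0.36 on the log2 scale (adjusted p = 0.0406, edgeR) and was called in 8 of the 17 alternatives. Zhx2, a repressor of several liver genes, was next by p, at a log2 difference of 0.26 (adjusted p = 0.166, edgeR).

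The targets that growth hormone pulses regulate differently in males and females cross this axis and are given in brief. Over all genes tested, 1.66% were called higher and 3.37% lower, and the median log2 fold change was 0.01. Of 25 tested male-biased targets 3 were called, all higher (Slc22a28, Mup3 and Ugt2b1, with log2 fold changes of 1.43, 0.91 and 0.76), and the median over the 25 was 1.42. These calls held in 9, 11 and 10 of the 17 alternatives. HKO 3 was far above the other HKO livers for several others of the list, such as Mup7, at 23431 CPM against 1118 to 1706 CPM. Without HKO 3 none of the 25 was called by edgeR, 13 had an unadjusted p under 0.05 and the median was 0.86. With all livers kept, 19.8% of all genes tested had an unadjusted p under 0.05 in edgeR. The share of all genes without HKO 3 is not given here, so the 13 cannot be set against it. Of 21 tested female-biased targets 2 were called, both lower (Cyp2a4 and Slc22a27, with -3.51 and -3.34), Cyp3a41a differed by -1.05 (adjusted p = 0.0900, edgeR), and the median was -1.13. Cyp2a4 was called in 9 and Slc22a27 in 13 of the 17 alternatives. Without HKO 3 the median was -0.91, with 3 genes of this list called lower (Slc22a27, Acot4 and Cyp4a10) and 1 higher (Cyp2c40). These genes belong to families of close relatives, so their counts may be divided among copies.

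**Figure D5:**
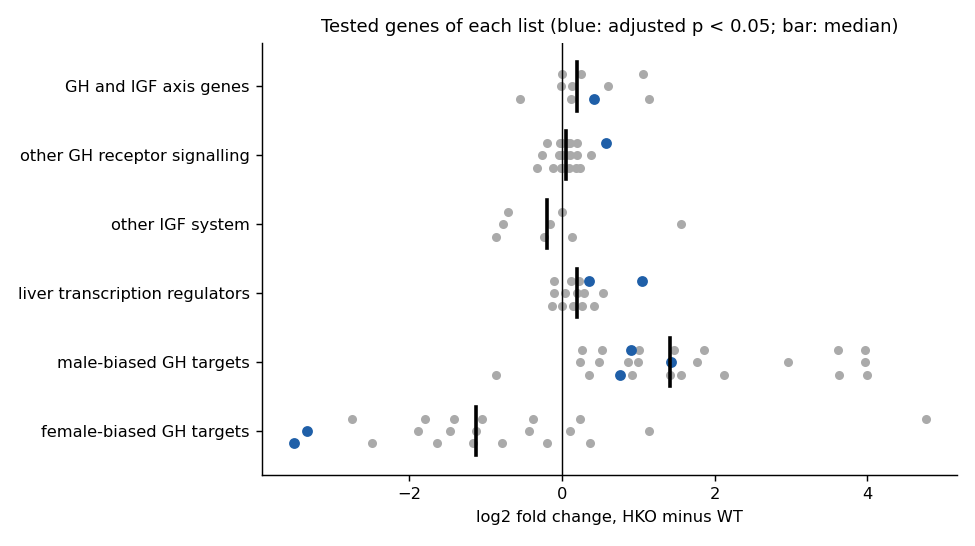
Log2 fold change, HKO minus WT, of the tested genes of each list, 1 point per gene, with blue for an adjusted p under 0.05 in edgeR and a black bar for the list's median. The 10 axis genes and the signalling, IGF system and regulator lists have medians between -0.20 and 0.20, against 1.42 for male-biased and -1.13 for female-biased targets.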

How the data were processed

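Values are unnormalized estimated counts per gene, deposited by the authors after Partek had divided reads by expectation-maximization, for the livers of 4 WT and 4 HKO mice. STAR and Partek are named in the submitters' processing notes, and their versions are not given in the sources used here. Of the values, 80.3% are whole numbers. Kits for small RNA and for rRNA depletion are both named in the labels, so the library type is uncertain. Coordinates are those listed, on GRCm38. The listed stop minus 1 equalled the RefSeq gene end for 65.3% of 17789 matched symbols and the stop itself for 4.06%, so ends are given as the stop minus 1. Mir33 itself was not analysed here, so genotypes rest on the labels.

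Estimated counts were rounded and tested with edgeR 4.0.16 in R 4.3.3 (TMM, default expression filter with minimum count 10, robust quasi-likelihood test, Benjamini-Hochberg adjustment over 12395 genes, threshold 0.05). The common biological coefficient of variation was 0.18. A prior count of 2 was added for log2 CPM. The 17 alternatives were the legacy quasi-likelihood method, limma-voom from limma 3.58.1, DESeq2 1.42.0, upper quartile, total count and RLE scaling, no filter, at least 10 counts in every liver, a replicate block and each liver left out. Single values were tested by two-sided exact permutation over 70 allocations in Python 3.11.15 (scipy 1.17.1, pandas 2.3.3, numpy 2.4.6), and figures were drawn with matplotlib 3.10.9. Model p-values weigh the genotype difference against the variation between these livers, and permutation p-values rank it among the 70 allocations.

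The 10 axis genes and all lists were chosen with earlier results of these data known. The text names all 10, and from each pathway list every gene called or, with fewer than 3 called, those with the smallest p up to 3, the 3 genes nearest in pattern to Igf1 and to each called axis gene, and defining markers. Jak2, Mup7, the genes called without HKO 3, the nearest patterns of Bcl6 and Cish and the combination of values in HKO 4 were picked after the values were seen. In counts simulated for this comparison on 12257 genes, edgeR recovered 94.8% of genes with a log2 change of 2 and 76.8% of those with a change of 1, and 4.02% of its calls were unchanged genes. In the same counts, unchanged genes made up 11.4% of the calls by DESeq2 and 5.17% of those by limma-voom. Genes were simulated independently, with no liver that departs across many genes as HKO 3 does. The shares recovered are averages over genes of all spreads and do not give what could be detected for widely spread genes such as Socs2 and Igfbp2.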

Additional observations from a re-analysis of the deposited data

Results flagged for a closer look

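In 8 of 70 groups of 4 livers, 1 liver was far from the rest of its genotype, while about 3.5 such groups (1 in 20) would occur by chance. Igfbp4 was 1280.4 CPM in WT 4, and the rest of the WT livers were at 1063 to 1092 CPM. Igfbp1 was 125 CPM in HKO 4, against 22.9 to 26.4 CPM. Hnf4a was 471 CPM in WT 3, against 435 to 441 CPM. Slc22a28 was 14.7 CPM in WT 4, against 6.12 to 6.91 CPM, and 29.4 CPM in HKO 3, against 19.97 to 21.3 CPM. Cyp3a41a was 10.8 CPM in WT 2, against 4.38 to 5.37 CPM. In HKO 2 the macrophage markers summed to 78.0 CPM, against 227 to 255 CPM, and the neutrophil markers to 8.18 CPM, against 1.86 to 2.89 CPM in the other HKO livers.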

How the results depend on the processing

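Over all genes, DESeq2 called 1014 genes against 624 by edgeR, and leaving out 1 liver at a time gave 212 to 598, with 272 without WT 1, 212 without WT 2 and 364 without HKO 4. Of the 10 axis genes, DESeq2 called 2, limma-voom 0, total count scaling 0, an added fold change above 1.5 left 0, an unadjusted p passed 4, and leaving out each liver gave 0 to 1. Without HKO 3 the call of Igfals was lost and that of Stat5a was gained, and without HKO 4 Igfals was called. With total count scaling 1 axis gene, Stat5a, was without overlap, while the genotypes overlapped for Igfals. Without a liver the number of axis genes without overlap was 2 to 4, with 4 without WT 4 and 4 without HKO 1. For the receptor signalling list DESeq2 called 2 genes. For the IGF system list DESeq2 called 1, and leaving out livers gave 0 to 2, with Igfbp3 and Adamts1 called without HKO 1. The regulator list had 1 call with total count scaling and 1 to 2 without a liver. The male-biased list had 12 calls with DESeq2, 0 with no expression filter and 0 to 5 without a liver, with 0 without WT 1, WT 3 or HKO 3 and 5 without WT 4. The female-biased list had 5 with DESeq2, 1 with limma-voom and 0 to 4 without a liver, with 0 without WT 1, WT 2, HKO 1 or HKO 4. The Stat5a to Stat5b ratio differed by -0.73 to -0.39 without a liver and reached p = 0.0286 in the exact permutation test without HKO 3. Cish turned to 0.0026 with no expression filter and ran from -0.69 to 0.44 without a liver, and Stat5b from -0.15 to 0.084 (also positive at 0.057, 0.015 and 0.029), so neither has a stable sign. The causes were not tested.

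Replicate numbers 1 to 4 occur in both genotypes but belong to different mice. Deviations of same-numbered livers from the mean of their genotype correlated at -0.148 to 0.0116, and 0 of the 8 livers correlated best with their own number. These values show no pairing by number, although 4 livers a genotype are too few to exclude one. The replicate block gave 456 calls over all genes, 0 among the axis genes, 1 in the IGF system list and 1 in the regulator list. All 17 alternatives kept the direction of Ghr, Igf1, Igfals, Igfbp2, Igfbp4, Socs2, Stat5a and Bcl6. With 4 livers a genotype, standard errors from 0.59 to 0.95 on the log2 scale for Socs2, Bcl6 and Cish limit what could be detected.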
